A study of Mus musculus with 11 samples.

Results

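The 9 SMG and UPF genes described here encode factors of nonsense-mediated mRNA decay (NMD). They are *Smg1*, *Smg5*, *Smg6*, *Smg8*, *Smg9*, *Upf1*, *Upf2*, *Upf3a* and *Upf3b*, taken from a list of names and matched by symbol to 9 of the 53801 gene identifiers counted. NMD removes mRNAs on which translation ends too early. The helicase UPF1 binds such an mRNA, UPF2 and the UPF3 proteins link it to exon junction complexes left downstream of the stop codon, and the kinase SMG1, held by SMG8 and SMG9, phosphorylates UPF1. Phosphorylated UPF1 then recruits SMG6, an endonuclease that cuts the mRNA near the stop codon, and SMG5, an adaptor toward deadenylation and decapping. The mRNAs of several of these factors are themselves known substrates of NMD in mammalian cells.

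RNA was sequenced from neural progenitor cell (NPC) cultures grown from the brains of E13.5 mouse embryos on a mixed C57BL/6 and 129SV background, 1 library per embryo and condition and 11 libraries in all. Every culture carried *Smg6* Flox/Flox. Ctr cultures (3 embryos) also carried RosaCreER tg/+, a tamoxifen-dependent Cre recombinase expressed from a ubiquitous promoter, and were not treated. Ctr + 4-OHT cultures (4 embryos) were RosaCreER +/+, without the recombinase, and received 1 µM 4-hydroxytamoxifen (4-OHT). *Smg6*-iKO cultures (4 embryos) carried RosaCreER tg/+ and received 1 µM 4-OHT. The labels give 3 days with 4-OHT and the series design gives 6 days from its start to the analysis. The *Smg6*-iKO group differed from Ctr by 4-OHT as well as by the deletion, and from Ctr + 4-OHT by the CreER allele as well. Each control thus leaves 1 of these that cannot be told apart from the loss of *Smg6*. CreER together with 4-OHT was present in *Smg6*-iKO alone, so neither control tells the active recombinase apart from that loss. Embryos are named as the labels name them, and SMH_128, SMH_132 and SMH_133 gave a library to both Ctr and *Smg6*-iKO, and no embryo of Ctr + 4-OHT gave a second library.

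Between 26418249 and 33756875 counts fell on genes in each library. The progenitor markers *Nes*, *Sox2* and *Vim* were abundant, at means of 817, 246 and 2119 CPM (counts as a rate of the library total, with TMM scaling between libraries), while the 4 microglial and the 4 erythroid markers summed to at most 1.40 and 0.431 CPM. In bulk RNA, fewer cells of a type and less RNA per cell cannot be told apart. Summed neuronal markers (5 genes) ran from 1956 to 2248 CPM in *Smg6*-iKO, above the 1684 to 1845 CPM of Ctr and inside the 1544 to 2501 CPM of Ctr + 4-OHT. The 8 progenitor markers summed to 4322 to 4892 CPM in *Smg6*-iKO, below the 5005 to 5196 CPM of Ctr and overlapping the 4420 to 5428 CPM of Ctr + 4-OHT. Mesenchymal markers (4 genes) were uneven within groups, from 221 to 1160 CPM in *Smg6*-iKO and from 236 to 667 CPM in Ctr + 4-OHT. Summed markers of astrocytes (428 to 516 CPM over the 3 groups) and of the ganglionic eminence (52.3 to 77.9 CPM) overlapped between all groups. Endothelial markers, near 0 in every library, summed to 2.88 to 3.76 CPM in *Smg6*-iKO, above the 2.16 to 2.87 CPM of Ctr + 4-OHT and overlapping the 2.07 to 3.42 CPM of Ctr, and those of the oligodendrocyte lineage ran from 329 to 387 CPM in *Smg6*-iKO, from 325 to 365 CPM in Ctr and from 372 to 481 CPM in Ctr + 4-OHT. Against Ctr + 4-OHT the log2 fold changes of the 8 progenitor markers ran from -0.69 to 0.16, and against Ctr from -1.28 to -0.034. In the latter comparison 5 of the 8 were called lower by edgeR, *Sox2*, *Pax6*, *Fabp7*, *Hes5* and *Sox1*, where 4.98% of all genes were. Of 5 ganglionic eminence markers (log2 fold changes from -0.43 to 0.44) *Dlx1* was called higher, and of 4 astrocyte markers (from -0.12 to 1.33) *Gfap*, where 4.27% of all genes were. With the embryo in the fit, 3 neuronal, 3 oligodendrocyte, 2 astrocyte, 1 ganglionic eminence and 1 mesenchymal marker were called higher, where 10.4% of all genes were, and 5 progenitor, 1 ganglionic eminence and 1 mesenchymal marker lower, where 11.5% were. What part these mixtures have in the values of the NMD factors was not tested.

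Transcript features that NMD is known to read, a long 3′ UTR and an upstream open reading frame (uORF), were examined in the principal GENCODE M21 transcript of each factor. *Smg5* and *Smg9* were the 2 members with a uORF that starts and stops before the coding sequence, a feature of 45.1% of 14079 protein-coding genes with counts. The uORF of *Smg5* was 93 bases long and that of *Smg9* 108 bases, stop codon included. In *Smg1* and *Upf2* a single upstream ATG opened a uORF of 21 and 39 bases whose TAA stop codon shares its last base with the ATG of the coding sequence, an arrangement found in 72 of the 14079 genes (0.511%) and noticed only on reading these sequences. No upstream ATG was found in the other 5 members, while 52.7% of the 14079 genes had at least 1. The 3′ UTR of *Smg1*, at 4233 bases, was longer than that of 93.8% of genes, and the next in length, that of *Smg6* at 1498 bases, was longer than 62.6%. The 3′ UTRs of *Smg8* (221 bases) and *Smg9* (400 bases) were the shortest of the 9. A stretch of 30 bases at each upstream ATG or main start codon is shown, since these 4 genes include every member that was called higher against Ctr + 4-OHT below. Capitals mark the upstream ATG in *Smg5*, *Smg9* and *Smg1* and, in *Smg1* and *Upf2*, the overlapping stop and start codons. All are read 5′ to 3′ on GRCm38, *Smg5* at chr3:88336303-88336332 on the plus strand, *Smg9* at chr7:24399626-24399655 on the plus strand, *Smg1* at chr7:118243288-118243317 on the minus strand, and *Upf2* on the plus strand of chromosome 2 in 2 pieces between 5951545 and 5957491, separated by an intron.
Smg5: ATGgcggccgagcagggccggcggcagtgg
Smg9: ATGcgccgagctagcagcgcaggccgtgac
Smg1: cttggccATGtcgtgtcggggaaggTAATG
Upf2: aggcactaggttgtcctgggtcacaTAATG

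The promoters of the 3 genes called higher against Ctr + 4-OHT are shown because these genes rose in the same libraries. Each run ends where the gene of the count table begins. The sequences are RefSeq's on GRCm38.p6, *Smg1* at chr7:118243671-118243887 on the minus strand, *Smg5* at chr3:88336010-88336259 on the plus strand and *Smg9* at chr7:24399378-24399618 on the plus strand. Capitals mark matches on either strand to a CCAAT box (CCAAT), a GC box (GGGCGG) and an NRF1-type site (TGCGCA).
Smg1: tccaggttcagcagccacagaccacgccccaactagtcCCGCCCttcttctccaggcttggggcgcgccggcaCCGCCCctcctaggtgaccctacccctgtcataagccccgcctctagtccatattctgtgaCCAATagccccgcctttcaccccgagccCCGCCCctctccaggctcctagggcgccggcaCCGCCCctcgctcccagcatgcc
Smg5: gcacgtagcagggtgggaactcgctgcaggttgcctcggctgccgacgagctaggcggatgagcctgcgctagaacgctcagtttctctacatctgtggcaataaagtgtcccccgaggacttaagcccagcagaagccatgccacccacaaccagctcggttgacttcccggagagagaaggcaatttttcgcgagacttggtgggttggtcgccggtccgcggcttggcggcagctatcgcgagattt
Smg9: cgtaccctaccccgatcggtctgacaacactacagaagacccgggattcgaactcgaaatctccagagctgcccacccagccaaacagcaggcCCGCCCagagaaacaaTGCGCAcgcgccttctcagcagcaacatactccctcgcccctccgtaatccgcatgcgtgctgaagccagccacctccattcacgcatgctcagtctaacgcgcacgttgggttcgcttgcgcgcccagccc

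Over the 250 bases before the RefSeq start, *Smg1* held 5 GC boxes and 1 CCAAT box, *Smg9* 1 GC box and 1 NRF1-type site, and *Smg5* none of the 7 motifs searched. In *Smg1* the last 33 of these bases lie inside the counted gene and are not printed, so fewer GC boxes are marked above than counted. A GC box was present in 7 of the 9 members and in 32.7% of 32851 promoters, a CCAAT box in 4 members and 33.8% of promoters, and the NRF1-type site in *Smg6*, *Smg9* and *Upf1* and in 6.43% of promoters. The ETS core CCGGAA was present in *Smg8* and *Upf1* (and in 3952 of the 32851 promoters) and the YY1 core AGATGGCG in *Upf3b* (1.03%). No member held the CRE TGACGTCA (1.55% of promoters) or the E-box CACGTG (6.02%). The matches shown do not overlap each other, and they are a description of the letters and not of binding. The GC content was 70.8% in *Smg1*, 59.6% in *Smg5* and 61.6% in *Smg9*, against a median of 52.4% over all promoters, and a GC-rich motif is met more often in GC-rich sequence.

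*Smg6*, the gene targeted for deletion, lies on the plus strand of chromosome 11 from 74925823 to 75164448. It had 69.4, 79.4 and 74.3 CPM in Ctr (SMH_128, SMH_132 and SMH_133), 66.5, 71.9, 72.3 and 66.6 CPM in Ctr + 4-OHT (SMH_125, SMH_126, SMH_129 and SMH_131), and 62.5, 62.3, 71.9 and 67.5 CPM in *Smg6*-iKO (SMH_127, SMH_128, SMH_132 and SMH_133). The groups overlapped, with *Smg6*-iKO embryo SMH_132 level with the upper Ctr + 4-OHT libraries. The counts are totals over all exons of the gene, so the lost part of the transcript is not seen apart from the rest and the deletion cannot be checked from them. Within the 3 embryos with both libraries, *Smg6* was lower in *Smg6*-iKO than in Ctr each time, by 0.16, 0.14 and 0.14 on the log2 scale in embryos SMH_128, SMH_132 and SMH_133. The fit that compares within embryos called this difference (log2 fold change -0.15, SE 0.049, adjusted p = 0.0423 from edgeR), whereas the fit without the embryo did not (-0.17, SE 0.071, adjusted p = 0.148). Against Ctr + 4-OHT the log2 fold change was -0.059 (SE 0.066, adjusted p = 0.703 from edgeR).

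**Figure D1:**
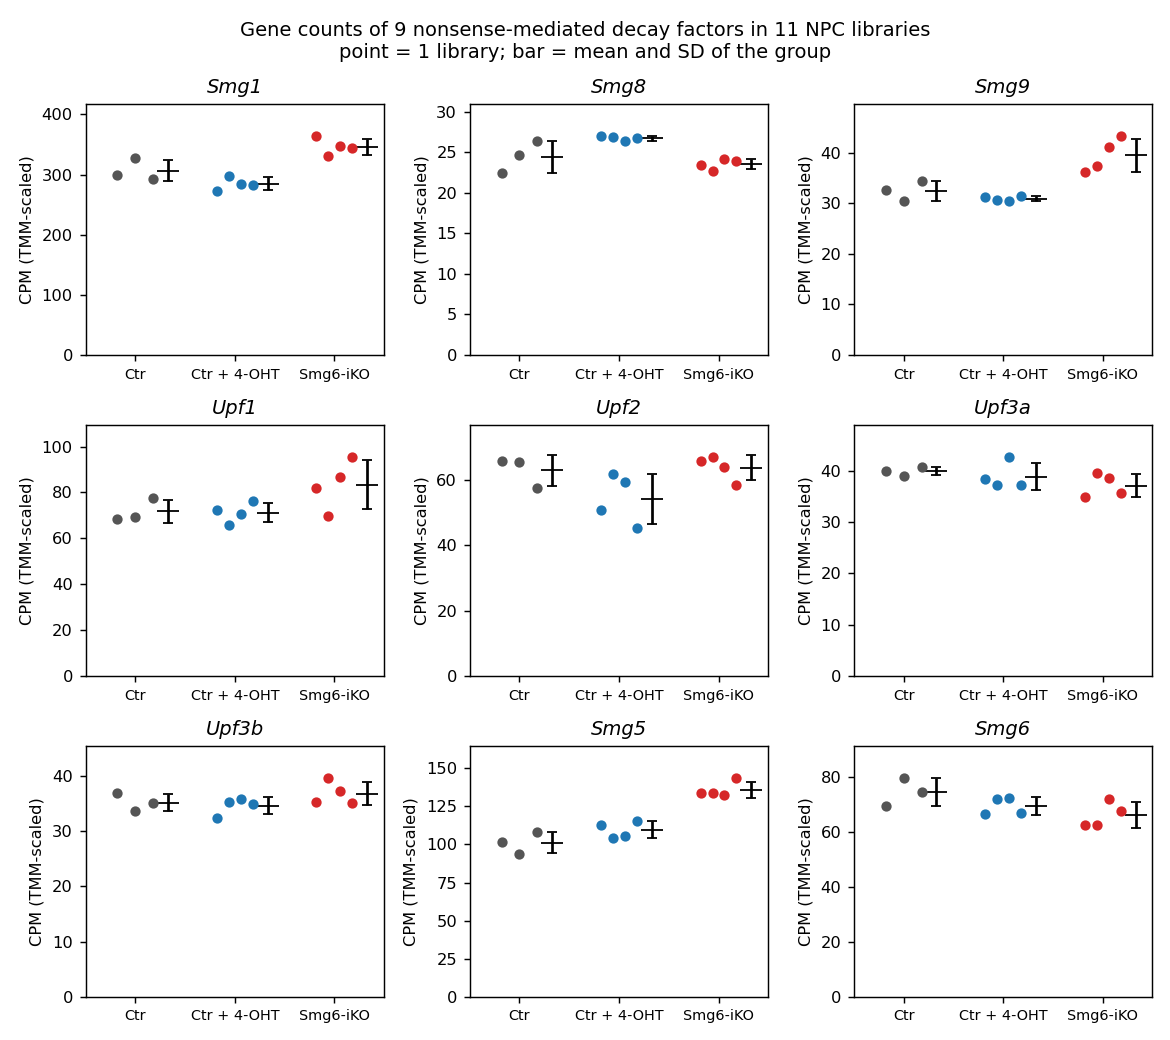
Scaled counts (CPM) of the 9 factors, in panels ordered by role, with 1 point per library and the mean and SD of each group beside the points. In *Smg1*, *Smg9* and *Smg5* all 4 *Smg6*-iKO libraries lie above all 7 control libraries, and in *Smg8* they lie below the 4 Ctr + 4-OHT libraries.

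Against Ctr + 4-OHT, 3 of the 9 factors were higher in *Smg6*-iKO at an adjusted p under 0.05 and none was lower. The 3 were the kinase gene *Smg1*, its partner *Smg9* and the decay adaptor *Smg5*, each raised by 1.23 to 1.29 times. Over all 17558 genes tested, 0.757% were called higher and 0.416% lower. The same 3 genes were the members in which every *Smg6*-iKO library lay above every Ctr + 4-OHT library, which 5.03% of all genes did, and *Smg8* was the 1 member in which every library lay below, as in 5.99% of all genes. At an unadjusted p under 0.05, 5 factors were higher and 1, *Smg8*, was lower, beside 9.02% and 7.67% of all genes. DESeq2's Wald test called the same 3 genes higher and none lower, beside 2.67% and 3.39% of the genes to which it gave an adjusted p. The median log2 fold change of the 9 factors was 0.24, against 0.012 over all genes.

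*Smg1*, on the minus strand of chromosome 7 from 118131308 to 118243670, had 272, 298, 285 and 283 CPM in Ctr + 4-OHT and 363, 330.3, 347 and 345 CPM in *Smg6*-iKO. The groups did not overlap. The log2 fold change was 0.30 (SE 0.055, adjusted p = 0.0358 from edgeR). Ctr libraries had 299.5, 327 and 293 CPM, so Ctr embryo SMH_132 came within a few CPM of the lowest *Smg6*-iKO library, that of embryo SMH_128. Against Ctr the log2 fold change was 0.18 (SE 0.059, adjusted p = 0.0833 from edgeR), and within embryos it was 0.15 (SE 0.050, adjusted p = 0.0339). Within embryos SMH_128, SMH_132 and SMH_133, *Smg1* was higher in *Smg6*-iKO by 10.3%, 6.23% and 17.7%.

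*Smg9*, whose product holds SMG1 together with SMG8, lies on the plus strand of chromosome 7 from 24399619 to 24422778. It had 31.3, 30.7, 30.5 and 31.4 CPM in Ctr + 4-OHT and 36.2, 37.4, 41.2 and 43.2 CPM in *Smg6*-iKO. The 4 Ctr + 4-OHT embryos were nearly level while the *Smg6*-iKO embryos were spread, and the lowest of them was still above every control. The log2 fold change was 0.36 (SE 0.068, adjusted p = 0.0363 from edgeR). Ctr libraries had 32.6, 30.5 and 34.4 CPM, all below *Smg6*-iKO. Against Ctr the log2 fold change was 0.28 (SE 0.075, adjusted p = 0.0420 from edgeR) and within embryos 0.32 (SE 0.063, adjusted p = 0.00138), with rises of 14.9%, 35.2% and 25.6% in embryos SMH_128, SMH_132 and SMH_133.

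*Smg8* encodes the other partner of SMG1 and lies on the minus strand of chromosome 11 from 87077732 to 87086774. It had 26.9, 26.8, 26.3 and 26.7 CPM in Ctr + 4-OHT and 23.5, 22.6, 24.1 and 23.9 CPM in *Smg6*-iKO. The groups did not overlap, and both were tight, but the difference did not pass the threshold (log2 fold change -0.17, SE 0.055, adjusted p = 0.159 from edgeR). Ctr libraries had 22.4, 24.6 and 26.3 CPM and covered the whole range of *Smg6*-iKO. Against Ctr the log2 fold change was -0.054 (SE 0.070, adjusted p = 0.672 from edgeR).

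*Smg5* lies on the plus strand of chromosome 3 from 88336260 to 88362338. It had 113, 104, 106 and 116 CPM in Ctr + 4-OHT, 102, 93.8 and 108 CPM in Ctr, and 134, 134, 132.5 and 143 CPM in *Smg6*-iKO. Every *Smg6*-iKO library was above every control, and the 2 control groups overlapped each other. Set against Ctr + 4-OHT its log2 fold change was 0.32 (SE 0.052, adjusted p = 0.0202 from edgeR), and against Ctr it was 0.43 (SE 0.060, adjusted p = 0.00349). Within embryos SMH_128, SMH_132 and SMH_133 it was higher in *Smg6*-iKO by 31.4%, 41.2% and 32.7% (log2 fold change 0.43, SE 0.047, adjusted p = 5.72e-06 from edgeR with the embryo in the fit).

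**Figure D2:**
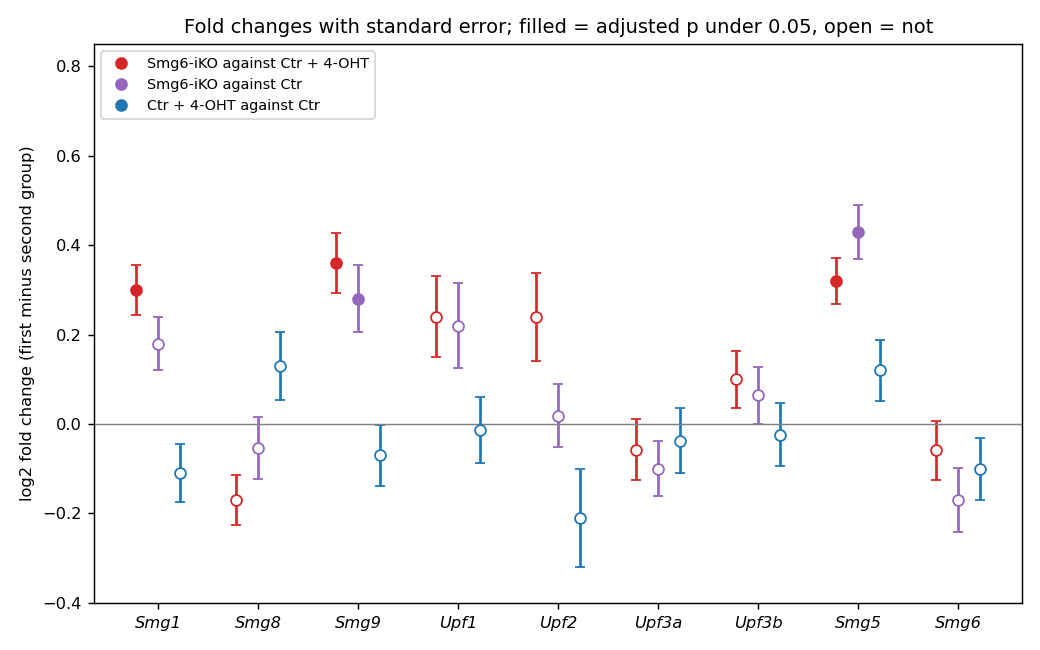
Log2 fold changes of the 9 factors in the 3 comparisons of groups, with bars of 1 standard error and filled points at an adjusted p under 0.05 (edgeR). *Smg5* and *Smg9* are filled in both comparisons of *Smg6*-iKO, *Smg1* only against Ctr + 4-OHT, and no factor is filled between the 2 control groups.

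None of the UPF genes was called against Ctr + 4-OHT. *Upf1*, the helicase gene, on the minus strand of chromosome 8 from 70331525 to 70353278, had 72.2, 65.9, 70.4 and 76.1 CPM in Ctr + 4-OHT, 68.5, 69.4 and 77.5 CPM in Ctr, and 82.0, 69.8, 86.5 and 95.3 CPM in *Smg6*-iKO. The *Smg6*-iKO libraries were the most spread of the 3 groups, with embryo SMH_128 among the controls and the other 3 above them. Set against Ctr + 4-OHT, the log2 difference was 0.24 (SE 0.091, adjusted p = 0.220 from edgeR), and against Ctr it was 0.22 (SE 0.095, adjusted p = 0.172); the fit within embryos called the latter (0.22, SE 0.058, adjusted p = 0.0124). The rise within embryos was 1.86% in embryo SMH_128, 24.7% in SMH_132 and 22.9% in SMH_133, and without *Smg6*-iKO embryo SMH_128 the fit without the embryo also called it (0.29, adjusted p = 0.0287 from edgeR), as did the fit of all libraries of both groups without a filter on low counts (0.23, adjusted p = 0.0263).

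*Upf2*, whose product bridges UPF1 and the UPF3 proteins, lies on the plus strand of chromosome 2 from 5951469 to 6056703. It had 50.8, 61.8, 59.5 and 45.3 CPM in Ctr + 4-OHT, 65.9, 65.6 and 57.5 CPM in Ctr and 66.0, 67.0, 63.9 and 58.5 CPM in *Smg6*-iKO. The Ctr and *Smg6*-iKO values ran together, and 2 Ctr + 4-OHT libraries, embryos SMH_125 and SMH_131, lay below all others. Set against Ctr + 4-OHT, the log2 difference was 0.24 (SE 0.098, adjusted p = 0.242 from edgeR), and against Ctr it was 0.019 (SE 0.071, adjusted p = 0.897). Ctr + 4-OHT embryos SMH_125 and SMH_131 also had the highest summed neuronal markers, 2501 and 2326 CPM, and mesenchymal markers, 559 and 667 CPM, of that group, and its lowest summed progenitor markers, 4420 and 4540 CPM, and the part of these in the value was not tested.

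The paralogues *Upf3a* and *Upf3b* both encode proteins that contact the exon junction complex. *Upf3a*, on the plus strand of chromosome 8 from 13785615 to 13799193, had 40.0, 39.1 and 40.7 CPM in Ctr, 38.5, 37.3, 42.7 and 37.3 CPM in Ctr + 4-OHT and 34.9, 39.6, 38.6 and 35.6 CPM in *Smg6*-iKO. *Upf3b*, on the minus strand of chromosome X from 37091678 to 37110322, had 36.8, 33.7 and 35.0 CPM in Ctr, 32.4, 35.2, 35.8 and 35.0 CPM in Ctr + 4-OHT and 35.3, 39.6, 37.2 and 35.1 CPM in *Smg6*-iKO. The groups overlapped in both genes. The log2 fold change against Ctr + 4-OHT was -0.057 for *Upf3a* (SE 0.069, adjusted p = 0.734 from edgeR) and 0.10 for *Upf3b* (SE 0.063, adjusted p = 0.467). Against Ctr it was -0.10 for *Upf3a* (SE 0.061, adjusted p = 0.302) and 0.064 for *Upf3b* (SE 0.063, adjusted p = 0.556).

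Against Ctr, 2 of the 9 factors were called higher in *Smg6*-iKO, *Smg5* and *Smg9*, and none was called lower. Among 17974 genes tested, 4.27% were called higher and 4.98% lower. At an unadjusted p under 0.05, 4 factors were higher and 1, *Smg6*, was lower, beside 13.6% and 13.3% of all genes. DESeq2 called *Smg1*, *Smg5* and *Smg9* higher and none lower, beside 7.04% and 9.89% of genes. In *Smg1*, *Smg5* and *Smg9* every *Smg6*-iKO library lay above every Ctr library, as in 11.4% of all genes, and no member lay wholly below, as 11.9% of all genes did. With the embryo in the fit, which uses the 3 embryos with both libraries and so leaves out *Smg6*-iKO embryo SMH_127, *Smg1*, *Smg5*, *Smg9* and *Upf1* were called higher and *Smg6* lower, while 10.4% of 17660 genes were called higher and 11.5% lower. The median of the 9 log2 fold changes was 0.064, against 0.0055 over all genes. Both comparisons of *Smg6*-iKO use the same 4 *Smg6*-iKO libraries.

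**Figure D3:**
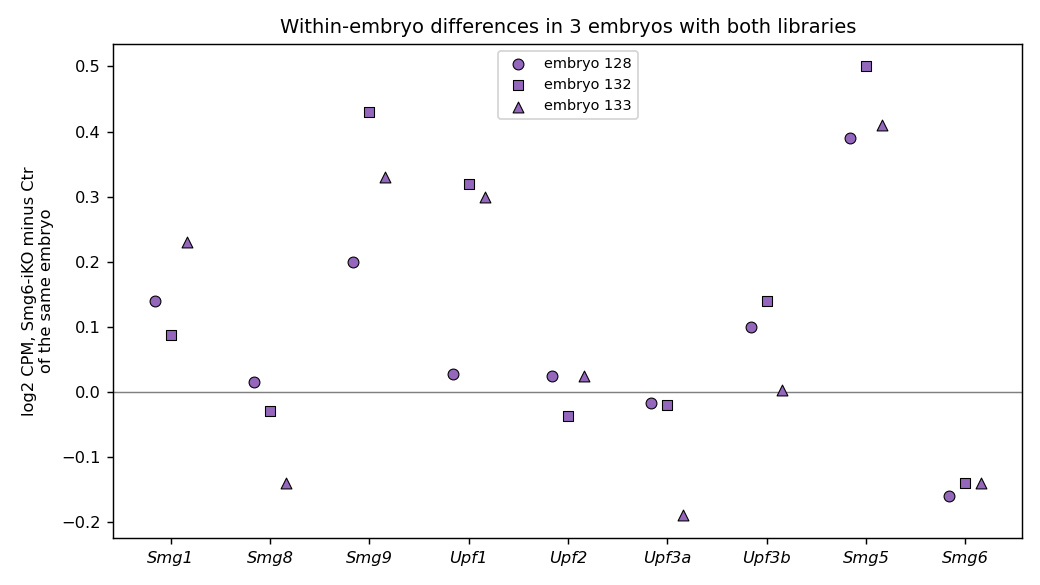
Difference in log2 CPM between the *Smg6*-iKO and the Ctr library of the same embryo, for embryos SMH_128, SMH_132 and SMH_133. All 3 embryos lie above 0 in *Smg1*, *Smg9*, *Upf1*, *Upf3b* and *Smg5* and below 0 in *Smg6* and *Upf3a*, with values no farther from 0 than 0.027 for *Upf1* in SMH_128, *Upf3b* in SMH_133 and *Upf3a* in SMH_128 and SMH_132.

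Between the 2 control groups, which differ by 4-OHT and by the CreER allele, no factor was called in either direction (edgeR), none had an unadjusted p under 0.05, and DESeq2 called none. Of 17665 genes tested, 0.0396% were called higher in Ctr + 4-OHT and 0.181% lower, 3.27% and 5.01% passed the unadjusted threshold, and DESeq2 called 0.215% and 0.610%. The log2 fold changes of the factors ran from -0.21 for *Upf2* (SE 0.11, adjusted p = 0.651 from edgeR) to 0.13 for *Smg8* (SE 0.076, adjusted p = 0.697). In *Smg8* every Ctr + 4-OHT library lay just above every Ctr library, as in 3.80% of all genes, and no member lay wholly below, as 4.91% of genes did.

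The calls against Ctr + 4-OHT were near the threshold in edgeR, while DESeq2 gave *Smg1*, *Smg5* and *Smg9* adjusted p values of 8e-05, 7.81e-05 and 0.000667. With 1 library left out of the edgeR fit in turn, *Smg9* was called in none of 8 fits (adjusted p from 0.0540 to 0.138, edgeR), *Smg1* in the fit without Ctr + 4-OHT embryo SMH_126 alone (adjusted p from 0.0483 to 0.135), and *Smg5* in the fits without Ctr + 4-OHT embryos SMH_126 or SMH_131 or *Smg6*-iKO embryo SMH_128 (adjusted p from 0.0340 to 0.0960). Their log2 fold changes moved little, from 0.31 to 0.40 for *Smg9*, from 0.27 to 0.32 for *Smg1* and from 0.29 to 0.34 for *Smg5*. Against Ctr, *Smg5* was called in each of 7 such fits (adjusted p from 0.00347 to 0.0216) and *Smg9* in 2, those without *Smg6*-iKO embryos SMH_127 or SMH_128 (adjusted p from 0.0314 to 0.163). With a trend on gene length removed from each library and no embryo in the fit, *Smg5* alone was called against either control, by 0.27 on the log2 scale over Ctr + 4-OHT (adjusted p = 0.0387 from edgeR) and by 0.38 over Ctr (adjusted p = 0.00564). *Smg9* was then at 0.31 over Ctr + 4-OHT (adjusted p = 0.0594 from edgeR) and 0.24 over Ctr (adjusted p = 0.0732). *Smg1* was at 0.21 over Ctr + 4-OHT (adjusted p = 0.0937 from edgeR). The median log2 fold change over all genes also fell in these fits, to -0.040 over Ctr + 4-OHT and to -0.031 over Ctr. Without the trend removed it was 0.012 and 0.0055. With both the length trend and the embryo in the fit, *Smg5*, *Smg9* (0.28, adjusted p = 0.00580 from edgeR) and *Upf1* (0.18, adjusted p = 0.0448) were called higher over Ctr and *Smg6* lower (-0.18, adjusted p = 0.0149), while *Smg1* was not called (0.11, adjusted p = 0.102).

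Ratios within a library do not depend on how libraries were scaled to one another, and were taken between CPM per kb of exonic gene length. The ratio of *Smg5* to *Smg6*, the genes of both effectors recruited by phosphorylated UPF1, was 1.78, 1.44 and 1.77 in Ctr, 2.06, 1.76, 1.77 and 2.11 in Ctr + 4-OHT, and 2.60, 2.61, 2.24 and 2.58 in *Smg6*-iKO. All 4 *Smg6*-iKO libraries were above all controls, embryo SMH_132 nearest to them. The ratio of *Smg8* to *Smg1* was 0.557, 0.561 and 0.670 in Ctr, 0.738, 0.671, 0.688 and 0.705 in Ctr + 4-OHT, and 0.482, 0.510, 0.518 and 0.517 in *Smg6*-iKO, below all controls. The ratio of *Smg9* to *Smg1* overlapped in the 3 groups, with means of 0.690 ± 0.0794 in Ctr (SD, n = 3), 0.706 ± 0.0342 in Ctr + 4-OHT (SD, n = 4), and in *Smg6*-iKO 0.741 ± 0.0707 (SD, n = 4). The ratio of *Upf3a* to *Upf3b* was 0.775 ± 0.0289 in Ctr (SD, n = 3), 0.768 ± 0.0505 in Ctr + 4-OHT (SD, n = 4), and in *Smg6*-iKO 0.689 ± 0.0136 (SD, n = 4), and its highest *Smg6*-iKO value, 0.706, was below the lowest control value, 0.722. Over all pairs of the 18087 genes counted in every library, the ratio set every *Smg6*-iKO library apart from all controls, above or below, in 4.95%, and it did so in 10 of the 36 pairs of the 9 factors, which share genes and are not independent. These ratios are descriptions and were not tested.

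**Figure D4:**
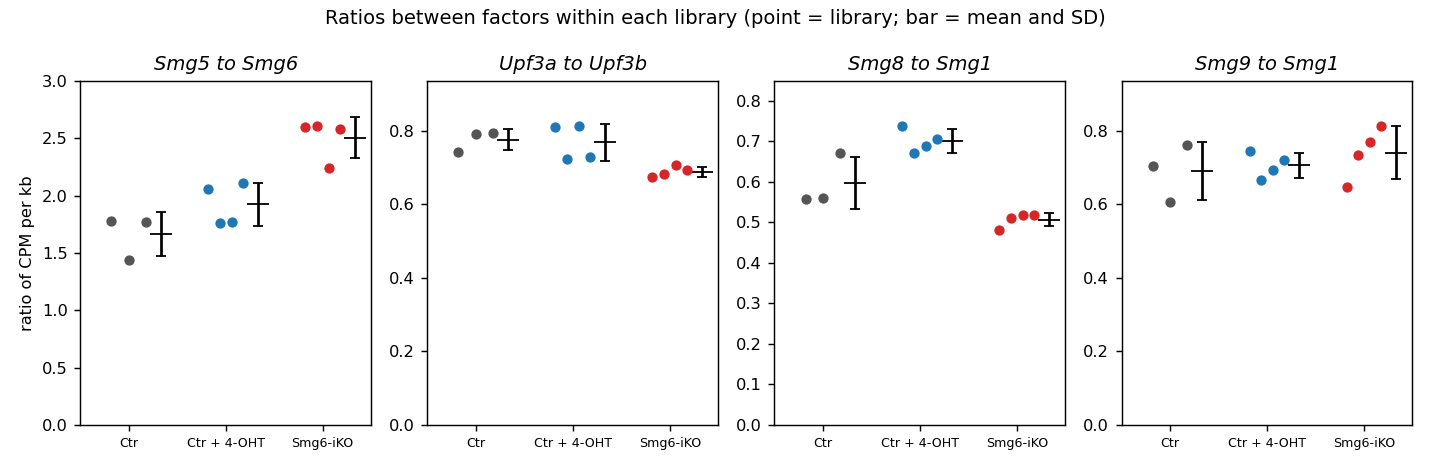
Ratios of CPM per kb between pairs of factors in each library (1 point per library, with the mean and SD of each group). The *Smg6*-iKO libraries lie apart from both control groups in the *Smg5* to *Smg6*, *Upf3a* to *Upf3b* and *Smg8* to *Smg1* ratios. In the *Smg9* to *Smg1* ratio they overlap the controls, with embryos SMH_132 (0.769) and SMH_133 (0.813) above the highest control (0.762).

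Per kb of exonic gene length, the 9 factors lay close together in Ctr, between 15.6 ± 1.08 CPM per kb for *Upf1* and 6.81 ± 0.139 for *Upf3a* (SD, n = 3), or between the 60.3 and the 80.2 percentile of the 18123 genes with counts. *Upf1*, *Smg5* (14.6 ± 1.02) and *Smg1* (12.8 ± 0.746) came first, with neighbouring ranges that overlapped. *Upf2* (11.5 ± 0.865) followed, apart from both neighbours. *Smg6* (8.80 ± 0.586), *Upf3b* (8.80 ± 0.390) and *Smg9* (8.78 ± 0.533) could not be ordered, and *Smg8* (7.60 ± 0.612) came just below them. In *Smg6*-iKO, *Smg5* stood first at 19.5 ± 0.730 CPM per kb, overlapping *Upf1* at 18.1 ± 2.29, and *Smg6* was in the seventh place at 7.81 ± 0.540, overlapping *Smg8* at 7.31 ± 0.205 (SD, n = 4). In Ctr + 4-OHT, *Upf3b*, *Smg9*, *Smg8* and *Smg6* lay between 8.65 and 8.20 CPM per kb with overlapping ranges of neighbours, and *Upf3a* again stood last at 6.64 ± 0.436 (SD, n = 4). The order depends on the length used. Per kb of the principal transcript, *Upf3a*, which has 2 annotated transcripts with a retained intron among its 3, had 19.4 CPM per kb in Ctr and ranked in the third place, behind *Smg5* (22.8) and *Smg1* (19.7), and *Upf1* had 15.6.

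The genes whose levels over the 11 libraries ran most like those of *Smg6* were not among the other 8 factors. By Euclidean distance between log2 CPM scaled within each gene, the nearest of 14820 other genes were *Prag1* (1.19), *Soga1* (1.29), *Caprin2* (1.53), *Anapc13* (1.54) and *Bptf* (1.57), where the median gene lay at 4.40. Among the factors *Upf3a* was nearest, at 3.28, and *Smg5* farthest, at 5.84.

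Other genes of the pathway were grouped by role, with 4 telomere genes as a further list. In 6 lists with 74 genes, all of them tested, none was called against Ctr + 4-OHT by edgeR, with 2 higher and 10 lower at an unadjusted p under 0.05, beside 9.02% and 7.67% of all genes. DESeq2 called *Pan3* higher and *Gspt1* and *Ppp2ca* lower, beside 2.67% and 3.39% of genes. Their log2 fold changes ran from -0.19 to 0.33, with a median of -0.027. Against Ctr, 2 were called higher and 2 lower (edgeR), beside the 4.27% and 4.98% of all genes. DESeq2 called the same 2 higher and 9 lower, namely *Pnrc1*, *Ppp2r1a*, *Ptbp1*, *Gspt1*, *Eif3e*, *Pnrc2*, *Ddx6*, *Cnot6* and *Tob1*, beside 7.04% and 9.89% of genes, and at an unadjusted p under 0.05 in edgeR 7 were higher and 13 lower, beside 13.6% and 13.3%. *Tti2*, a cofactor for the folding of SMG1 and related kinases, had 42.1 ± 1.64 CPM in *Smg6*-iKO (SD, n = 4) and 36.4 ± 0.674 in Ctr (SD, n = 3), a log2 fold change of 0.21 (SE 0.055, adjusted p = 0.0378 from edgeR). *Pan3*, of the poly(A) nuclease that begins deadenylation, had 143 ± 6.54 and 118 ± 6.62 CPM, a log2 fold change of 0.28 (SE 0.059, adjusted p = 0.0191). *Pnrc1*, a decapping coactivator, had 149 ± 8.86 and 184 ± 15.8 CPM, a log2 fold change of -0.31 (SE 0.070, adjusted p = 0.0239). *Ppp2r1a*, the scaffold of the phosphatase that acts on UPF1, had 387 ± 9.22 and 446 ± 21.7 CPM, a log2 fold change of -0.20 (SE 0.054, adjusted p = 0.0413).

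By list, in edgeR without the embryo in the fit, none of 15 genes listed with the exon junction complex was called in any comparison. Their log2 fold changes ran from -0.17 to 0.10 when set against Ctr + 4-OHT, and from -0.21 to 0.026 when set against Ctr. This list includes cap-binding genes. Nor was any of 8 termination and poly(A)-binding genes called (from -0.19 to 0.072 and from -0.21 to 0.18), or of 4 telomere genes (from -0.18 to 0.33 and from -0.18 to 0.38). In the same edgeR fits, of 15 accessory factors of SMG1 and UPF1 only *Tti2* was called, of 6 phosphatase genes only *Ppp2r1a*, and of 26 genes of decapping, deadenylation and exonuclease digestion *Pan3* and *Pnrc1*, each against Ctr. With the embryo in the fit, 4 of the 74 genes were called higher against Ctr and 13 lower, among them 3 phosphatase genes and 5 of decapping, deadenylation and digestion lower, beside the 10.4% and 11.5% of all genes. Between the control groups none of the 74 was called (edgeR and DESeq2), and at an unadjusted p under 0.05 none was higher and 5 were lower, beside 3.27% and 5.01% of all genes.

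**Figure D5:**
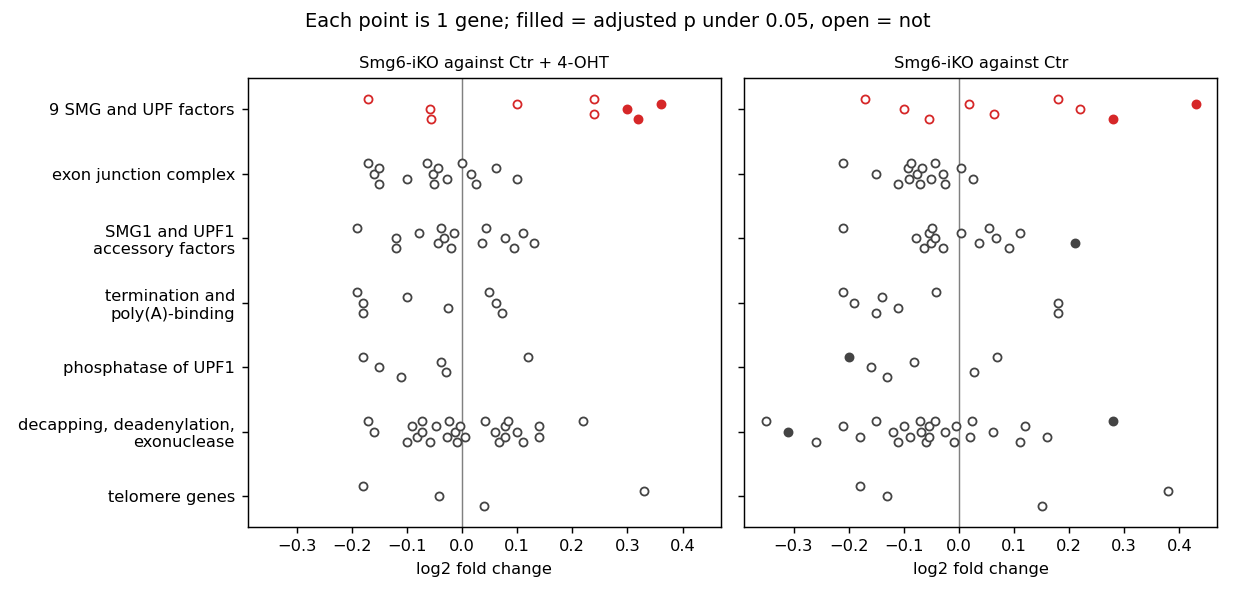
Log2 fold changes of the 9 SMG and UPF factors (red) and of 6 lists of other pathway and telomere genes (grey) in *Smg6*-iKO against either control, 1 point per gene, filled at an adjusted p under 0.05 (edgeR). Against Ctr + 4-OHT the 3 filled points are *Smg1*, *Smg5* and *Smg9*, and the 74 other genes are open.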

How the data were processed

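Libraries of total RNA, depleted of ribosomal RNA and stranded, were mapped by the authors to GRCm38 with STAR 2.5.4b and counted with featureCounts 1.5.0 on Ensembl release 92, and the authors deposited raw counts per gene of reads with 1 position and 1 gene. In 11 libraries, 53706 of 53801 identifiers matched a GENCODE M21 symbol. Members and gene lists were chosen with earlier results of these data known, and 1 further factor is not reported here. Named were all members, every gene of the lists called by edgeR without the embryo as a block (those called by DESeq2 alone are named beside its count, outside this rule), and the 5 genes most like *Smg6* among those with a mean of at least 1 CPM.

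Only the libraries of the 2 groups compared entered a fit, made with edgeR 4.0.16 in R 4.3.3 (filterByExpr, TMM, quasi-likelihood, Benjamini-Hochberg adjustment over all genes, threshold 0.05), and standard errors were taken from the fold change and the F statistic. Alternatives used limma 3.58.1, DESeq2 1.42.0 and a loess trend on gene length (span 0.3). The edgeR, limma, DESeq2 and length-trend fits were tested on simulated data without an embryo effect or a length trend. The fits with the embryo were not tested in this way. Log2 CPM used a prior count of 2. Ctr and *Smg6*-iKO libraries of the same embryo number come from the same animal, and the block on the embryo leaves out the unpaired *Smg6*-iKO embryo 127. Over 18123 genes, which are not independent replicates, such libraries departed from their group means together, with r of 0.328, 0.399 and 0.425, against -0.265 to 0.095 for other pairs. Because departures from a group mean sum to 0, the other pairs lie lower in part by construction. SDs and SEs cover counting error and the spread between embryos.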

Additional observations from a re-analysis of the deposited data

Results flagged for a closer look

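Of 26 groups of 4 libraries examined (the 9 factors and 4 ratios in Ctr + 4-OHT and *Smg6*-iKO), 2 held a library whose gap to its nearest neighbour exceeded the 95% critical value of Dixon for its share of the range of the group, where chance gives about 1 in 20. *Smg5* had 143 CPM in *Smg6*-iKO embryo SMH_133, above the other 3 libraries at 132.5 to 134 CPM. The ratio of *Smg5* to *Smg6* was 2.24 in *Smg6*-iKO embryo SMH_132, below the other 3 at 2.58 to 2.61, and still above the highest control, 2.11.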

How the results depend on the processing

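Against Ctr + 4-OHT, 3 factors were called under each of 8 alternative settings other than the length trend, which left 1, and 0 to 2 were called with each library left out. Against Ctr, 2 were called, 3 without a filter on low counts or with DESeq2, 1 with the length trend, 5 with the embryo as a replicate block (which leaves out *Smg6*-iKO embryo SMH_127; its 6 libraries without the block gave 2), 4 with the block and the length trend, and 1 to 3 with each library left out. Between the controls 0 were called under every setting run. *Upf2* against Ctr turned from 0.019 to -0.023 with the length trend and to -0.031 with the block and the length trend. The median over all genes against Ctr was 0.0055, and under the same 2 settings -0.031 and -0.029. With a library left out, *Upf2* against Ctr lay between -0.046 and 0.057, *Upf1* between the controls between -0.046 and 0.052, and *Upf3b* between -0.054 and 0.013. The cause of these moves was not tested.

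The number of all genes called against Ctr + 4-OHT was 206, and 418 without a filter on low counts, 484 with all libraries in one fit, 873 and 1150 with DESeq2 on 2 or 3 groups, and 66 to 174 with a library left out. Against Ctr it was 1663, and 2714 without the filter, 796 in one fit, 3873 with the replicate block (843 from its 6 libraries without the block), 4108 with the block and the length trend, and 570 to 2524 with a library left out. Between the controls it was 39, and 198, 60, 169 and 239 under the same first 4 settings, and 5 to 54 with a library left out. The length of the principal transcript was used as an alternative chosen after seeing the data. The fewest counts behind a level of a factor were 617, for *Smg8* in 1 library.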
